A study of Mus musculus and Homo sapiens with 8 samples.

Results

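The 10 genes described here, long used as readouts of low oxygen and of glucose breakdown, were followed in crypt RNA of the small intestine: Adm, Ankrd37, Hk2, Slc2a1, Ldha, Pgk1, Vegfa, Bnip3, Ndrg1 and Pdk1. They were taken by symbol, and all 10 were among the 13359 distinct genes of the expression table. The comparison has 2 groups, each of 2 RNA-seq libraries. Both come from untreated C57BL/6 mice aged 2 months that carry the Apc Min allele (labelled APCmin+), and the second group is labelled as also lacking Zmynd8 in the intestinal epithelium (APCmin+; Zmynd8IEC-/-). The controls therefore share the Apc Min mutation, which predisposes to intestinal adenomas, and no group without it was included. Each library mixed RNA of 3 mice. The sources used here name neither the promoter that drives the deletion nor the litter or day of a pool, so the p-values describe the spread between pools and nothing finer. The series is titled for ZMYND8, a chromatin reader, and the mevalonate pathway, which makes cholesterol and isoprenoids. The comparison described here asks how oxygen-responsive and glucose-handling genes stand beside it in the same pools.

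As background, cells sense oxygen through hypoxia-inducible factors (HIFs). Prolyl hydroxylases of the Egln family mark the HIF alpha subunits for destruction by the Vhl ubiquitin ligase while oxygen is present. When oxygen falls, the alpha subunits persist, pair with Arnt and bind short DNA elements near genes for glucose uptake, glycolysis, vessel growth and mitochondrial turnover. The intestinal epithelium lies beside an oxygen-poor lumen and is among the tissues in which this pathway is active without disease. Several of the same genes also answer to growth signals, so they are not readouts of oxygen alone.

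The deposited values are FPKM (reads per gene, scaled to gene length and to the library's total). Totals behind them ran from 44718091 to 48778712 reads. All 10 genes stood above 1 FPKM in every library and entered the limma test, which was run on log2(FPKM + 1) over 12948 genes. On that scale the median gene was 0.15 lower in the pools labelled knockout, and a median-ratio rescaling of the libraries moved that median by 0.15, so values relative to the median are given where they matter. The test called 77 genes higher and 17 lower; median-ratio scaling gave 60 and 4, and quantile normalization 61 and 5. Zmynd8 RNA itself stood at 6.94 and 4.73 FPKM in the control pools against 7.30 and 7.65 FPKM in the pools labelled knockout. Gene-level values do not show which exons remain, so the directions below rest on the labels.

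Of the 10 genes 2 fell, Ankrd37 and Adm (adjusted p under 0.05, which 0.131% of all genes tested met in this direction), and none rose (0.595% of all genes did). At an unadjusted p under 0.05 there were 4 lower (Ankrd37, Adm, Hk2 and Pdk1), where 19.1% of all genes were, and 1 higher (Vegfa), where 7.49% of all genes were, so the higher count is near the background. The counts given below for other gene lists and for markers, called or unadjusted, are to be read against the same shares. A drop of at least 1 on the log2 scale was found for 4 genes, Hk2, Slc2a1, Ankrd37 and Adm, against 1.75% of all genes tested. The 10 genes were chosen with earlier results of these data known, so the shares beside these counts are description only. The control means of those 4 genes were 3.18 to 3.84 times those of the pools labelled knockout. The other 6 lay between -0.47 and 0.37. Both pools labelled knockout lay below both controls for 5 genes, as they did for 48.5% of all genes, so that count is at the background as scaled by the authors. It was 5 against 28.0% of all genes with median-ratio scaling, and 6 against 31.0% with quantile normalization. Both pools labelled knockout lay above both controls for 1 gene, Vegfa, against 14.9% of all genes. That count was 3 against 28.2% with median-ratio scaling and 1 against 25.3% with quantile normalization. The median of the 10 log2 fold changes was -0.33, or -0.18 relative to the median gene. In bulk RNA of whole crypts, fewer cells of a type and less RNA per cell cannot be told apart, and markers of enterocytes, Paneth cells and dividing cells, given last, stood at different levels in the same groups.

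**Figure D1:**
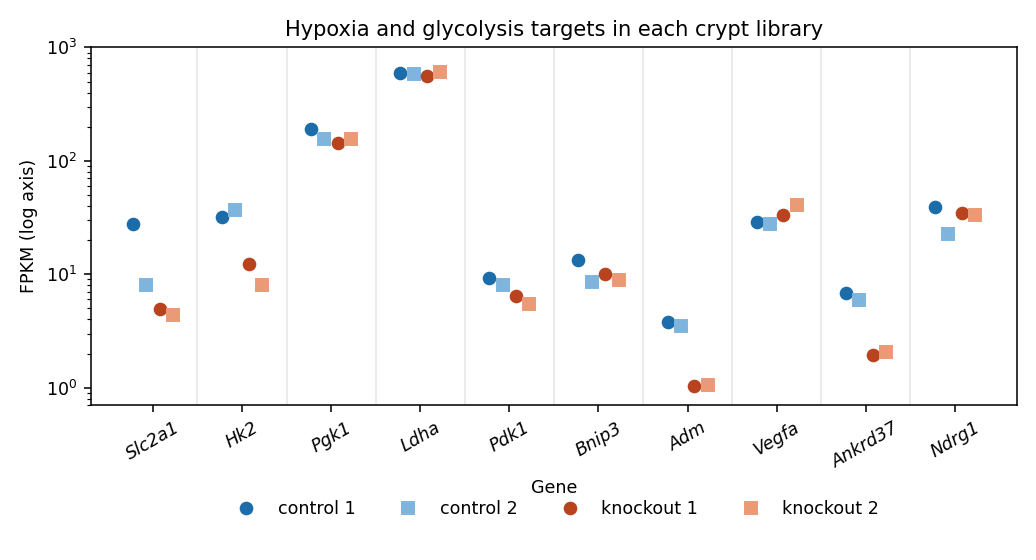
FPKM (log axis) of the 10 genes in each of the 4 libraries, blue for the Apc Min controls and red for the libraries labelled as lacking Zmynd8, circles for replicate 1 and squares for replicate 2. Hk2, Adm and Ankrd37 show 2 separate pairs of points, Slc2a1 is spread within the controls (27.8 and 8.11 FPKM), and Ldha and Pgk1 overlap between groups.

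The promoter windows of 5 of the genes are shown because the genes behave differently in the libraries although all are textbook HIF targets: Slc2a1, Hk2 and Adm, with a drop of at least 1 on the log2 scale, and Pgk1 and Ldha, which showed none. Each window is the 250 bases before the annotated start, read 5′ to 3′ along the gene's strand (RefSeq, GRCm38.p6). Capitals mark each match to the core of the hypoxia response element, searched as ACGTG and GCGTG on both strands, so that on the printed strand CACGT and CACGC count too. Overlapping matches, as in the E-box CACGTG, which holds ACGTG on both strands, count separately.
Slc2a1 promoter: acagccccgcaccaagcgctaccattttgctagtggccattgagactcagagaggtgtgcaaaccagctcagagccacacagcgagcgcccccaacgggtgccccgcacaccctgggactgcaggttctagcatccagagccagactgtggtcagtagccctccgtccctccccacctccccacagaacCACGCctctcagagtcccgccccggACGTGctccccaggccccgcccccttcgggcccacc
Hk2 promoter: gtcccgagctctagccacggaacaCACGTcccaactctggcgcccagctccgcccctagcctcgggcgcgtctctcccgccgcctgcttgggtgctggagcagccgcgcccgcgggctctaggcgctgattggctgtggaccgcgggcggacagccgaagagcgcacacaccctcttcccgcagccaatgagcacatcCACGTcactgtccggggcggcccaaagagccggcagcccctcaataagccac
Adm promoter: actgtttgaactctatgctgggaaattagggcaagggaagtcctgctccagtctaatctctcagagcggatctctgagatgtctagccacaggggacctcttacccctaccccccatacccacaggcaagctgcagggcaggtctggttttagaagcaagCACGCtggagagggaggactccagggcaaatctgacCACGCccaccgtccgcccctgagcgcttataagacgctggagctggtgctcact
Pgk1 promoter: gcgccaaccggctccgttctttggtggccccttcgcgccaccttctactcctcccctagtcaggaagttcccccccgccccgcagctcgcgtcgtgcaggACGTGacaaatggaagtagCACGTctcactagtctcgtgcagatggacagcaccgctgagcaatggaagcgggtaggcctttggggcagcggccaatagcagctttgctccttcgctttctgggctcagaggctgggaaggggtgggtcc
Ldha promoter: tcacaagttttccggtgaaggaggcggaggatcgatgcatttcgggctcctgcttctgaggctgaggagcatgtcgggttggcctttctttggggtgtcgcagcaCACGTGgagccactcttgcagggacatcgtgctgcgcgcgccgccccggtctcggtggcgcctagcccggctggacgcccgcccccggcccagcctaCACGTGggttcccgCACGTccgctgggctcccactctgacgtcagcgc
The windows lie at chr4:119108495-119108744 (plus strand), chr6:82774455-82774704 (minus), chr7:110627407-110627656 (plus), chrX:106186850-106187099 (plus) and chr7:46845554-46845803 (plus), in the same order.

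Matches were found in the windows of both kinds of gene. The 4 genes with the large drops held 2 (Slc2a1), 2 (Hk2), 2 (Adm) and 4 (Ankrd37) matches, while Pgk1 held 2 and Ldha 5. The Ankrd37 window, not printed, precedes a RefSeq start that lies 973 bases inside the gene as the expression table draws it. Ldha has the E-box form at 2 places in its window. Bnip3 held 5, Pdk1 1 and Vegfa 0, which says only that these letters are not in that window. For comparison, 38.6% of all 32851 windows and 54.9% of the 11780 windows of genes tested held 1 or more matches. The count of matches thus did not separate the genes with large drops from Ldha, Pgk1 or Bnip3. Ndrg1 was not matched.

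Slc2a1 and Hk2 act where glucose enters the cell and is trapped. Slc2a1 encodes the glucose transporter GLUT1 (chromosome 4, 119108745 to 119137330, plus strand). The control pools held 27.8 and 8.11 FPKM (3332 and 1061 reads), and those labelled knockout 4.95 and 4.398 FPKM (618 and 566 reads). The groups do not overlap, but control replicate 1 was 3.43 times control replicate 2, a wider gap than the one between control replicate 2 and either library labelled knockout. On the log2 scale it differed by -1.51 (SE 0.65, 95% interval -3.47 to 0.44, limma adjusted p = 0.248). Without control replicate 1 it was -0.68, and without control replicate 2 it was -2.34 (adjusted p = 0.0143; over its 12 alternatives the adjusted p ran from 0.0143 to 0.698), so the size rests on which control pool is used.

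Hk2, the inducible hexokinase that phosphorylates glucose (chromosome 6, 82725023 to 82774454, minus strand), separated the groups clearly. It stood at 31.8 and 37.0 FPKM in the control pools against 12.3 and 8.08 FPKM in the pools labelled knockout, on 2196 to 10224 reads. Both control pools were far above both others. The log2 difference was -1.68 (SE 0.21, interval -2.25 to -1.12), with limma adjusted p = 0.0621. Over 12 alternatives it stayed between -1.96 and -1.41 and passed in 1, limma-voom on recovered reads (adjusted p = 0.0470; range 0.0470 to 0.257). In the authors' deposited table, Hk2 is the only one of the 10 with a q-value under 0.05 (0.0252), and Slc2a1 follows at 0.298. At that threshold the authors' deposited table holds 117 lower genes (0.876% of all 13359) and 168 higher (1.26%).

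Further down the pathway Pgk1 and Ldha were close to level, while some other enzyme genes, given below, were not. Pgk1 encodes phosphoglycerate kinase, which makes the first ATP of glycolysis (chromosome X, 106187100 to 106203699, plus strand). It stood at 189 and 155 FPKM in the control pools against 144 and 156 FPKM in the pools labelled knockout, and the groups overlap. On the log2 scale it differed by -0.19 (SE 0.14, interval -0.55 to 0.17, adjusted p = 0.404). Ldha encodes the lactate dehydrogenase subunit that turns pyruvate into lactate (chromosome 7, 46845804 to 46855627, plus strand) and was the most abundant of the 10, at 596 and 582 FPKM in the controls and 561 and 602 FPKM in the other libraries. The difference was -0.02 (SE 0.12, interval -0.32 to 0.29, adjusted p = 0.93), and 0.16 after median-ratio scaling, so its sign depends on the scaling. The intervals of Ldha and Hk2 do not overlap. RefSeq names 3 pseudogenes each after Ldha and Pgk1, none of them in the expression table, so reads could have been shared with such copies.

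Pdk1 encodes a kinase that switches off pyruvate dehydrogenase and so keeps pyruvate out of the citric acid cycle (chromosome 2, 71873213 to 71903858, plus strand). It stood at 9.23 and 7.97 FPKM in the control pools against 6.39 and 5.50 FPKM in the pools labelled knockout. Both of the latter were below both controls, by less than for Hk2. The log2 difference was -0.47 (SE 0.13, interval -0.80 to -0.14), or -0.31 relative to the median gene, and did not pass (limma adjusted p = 0.125).

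Adm and Vegfa, the secreted members, differed in sign. Adm encodes adrenomedullin, a vasodilator peptide that also guards endothelial barriers (chromosome 7, 110627669 to 110629819, plus strand). It fell from 3.81 and 3.49 FPKM (235 reads in each control) to 1.04 and 1.06 FPKM (67 and 70 reads). The pools of a group were nearly equal and the groups far apart, on few reads. On the log2 scale it differed by -1.18 (SE 0.13, interval -1.52 to -0.84, limma adjusted p = 0.0451). The added pseudocount shrinks this value, since with a pseudocount of 0.1 it was -1.70. The call passed in 2 of 11 alternatives (adjusted p 0.0382 to 0.367), with a drop of 1.05 or more in all 11, and in the authors' deposited table the q-value is 1.

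Vegfa encodes the main growth factor of blood vessels (chromosome 17, 46016993 to 46032377, minus strand). It stood at 28.9 and 28.0 FPKM in the control pools against 33.2 and 41.2 FPKM in the pools labelled knockout. The controls were nearly equal and both other libraries higher, replicate 2 the most. The log2 difference was 0.37 (SE 0.13, interval 0.03 to 0.70) and did not pass (limma adjusted p = 0.167). Relative to the median gene it was 0.52, and it was positive in all 12 alternatives (0.22 to 0.54).

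Ankrd37, Bnip3 and Ndrg1 are HIF targets outside glycolysis. Ankrd37, a small ankyrin repeat protein gene often used as a HIF readout (chromosome 8, 45996902 to 46000823, minus strand), fell from 6.79 and 5.90 FPKM (569 and 540 reads) to 1.95 and 2.04 FPKM (170 and 184 reads). No library lay between the groups. On the log2 scale it differed by -1.29 (SE 0.13, interval -1.62 to -0.96, limma adjusted p = 0.0417). The call passed in 5 of 11 alternatives (adjusted p 0.0297 to 0.345), and the authors' deposited table gives a q-value of 1. The gene shares 57 bases with Ufsp2 on the opposite strand, and any use of strand in the counting is not given. Ufsp2, which is not a member, stood at 17.3 and 17.3 FPKM in the control pools against 15.5 and 15.8 FPKM in the other libraries.

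Bnip3 encodes a mitochondrial outer membrane receptor for mitophagy, the removal of mitochondria by autophagy (chromosome 7, 138890836 to 138909506, minus strand). It stood at 13.4 and 8.63 FPKM in the control pools against 10.1 and 8.97 FPKM in the pools labelled knockout, both inside the control range. The log2 difference was -0.17 (SE 0.22, interval -0.73 to 0.40, adjusted p = 0.64), 0.13 without control replicate 1 and -0.46 without control replicate 2. Ndrg1, a stress- and differentiation-linked cytoplasmic protein gene (chromosome 15, 66929318 to 66969641, minus strand), had 39.2 and 22.8 FPKM in the control pools against 34.5 and 33.6 FPKM in the other libraries. Here too the controls enclose the other group. Its value was 0.18 (SE 0.27, interval -0.57 to 0.93, adjusted p = 0.691), 0.56 without control replicate 1 and -0.20 without control replicate 2.

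**Figure D2:**
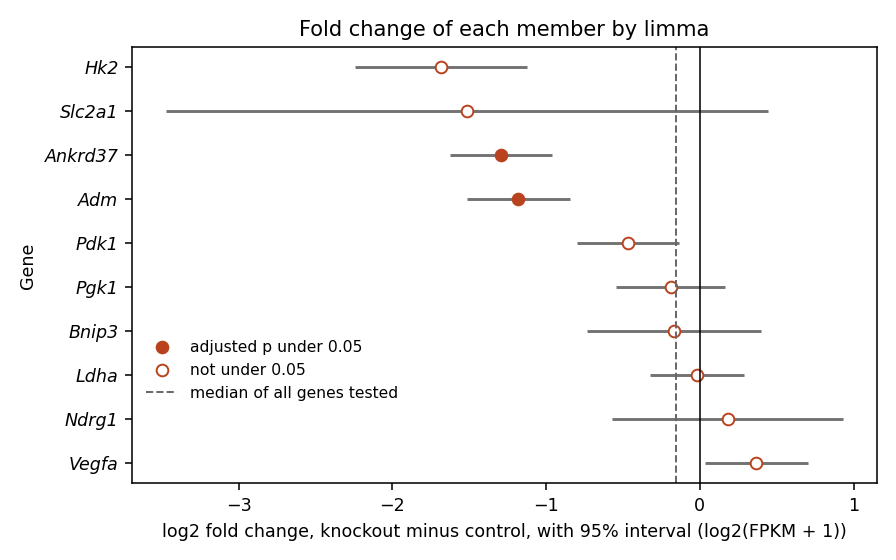
Log2 fold change (pools labelled knockout minus controls, on log2(FPKM + 1)) of each of the 10 genes with its 95% limma interval, filled where the adjusted p was under 0.05. Ankrd37 and Adm are filled; the interval of Slc2a1 runs from -3.47 to 0.44 and those of Ldha, Pgk1, Bnip3 and Ndrg1 include 0; the dashed line is the median of all genes tested, at -0.15.

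Most of these genes belong to small families, so their share of the family's summed FPKM was taken within each library. A single scaling factor per library cannot move such a share, while quantile normalization could. Shares describe the make-up of the RNA and do not show that relatives replace each other in function. Hk2 made up 30.7% and 33.0% of hexokinase FPKM in the controls and 13.4% and 9.17% in the pools labelled knockout. Hkdc1, a hexokinase-like gene abundant in gut, made up 58.3% and 60.7% and then 81.0% and 86.3%. Hkdc1 itself stood at 60.5 and 68.0 FPKM and at 74.1 and 76.1 FPKM (log2 fold change 0.22, adjusted p = 0.244), and Hk1 at 10.5 and 5.59 FPKM and at 3.95 and 2.86 FPKM (-0.996, adjusted p = 0.161). The summed hexokinase FPKM was 104 and 112 in the control pools, then 91.4 and 88.1 in the other libraries. As scaled by the authors, the family total was thus lower by less than Hk2 was, while the make-up shifted. A sum, unlike a share, moves with the scaling of the library. The median-ratio factors were 1.1 and 1.025 for the controls and 0.962 and 0.919 for the other libraries, so the lower total depends on the scaling.

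The transporter family showed the same kind of shift with a rising partner. Slc2a1 made up 31.7% and 14.0% of the summed Slc2a1, Slc2a2, Slc2a4 and Slc2a5 FPKM in the controls and 2.75% and 1.99% in the pools labelled knockout. Slc2a2, the basolateral GLUT2 of mature enterocytes, rose from 29.2 and 23.7 FPKM to 117 and 151 FPKM (2.29, limma adjusted p = 0.0412). That call passed in 6 of 12 alternatives (adjusted p 0.0269 to 0.256), with a log2 fold change of 2.11 or more in all 12. The family sum went from 87.6 and 57.9 FPKM to 180 and 221 FPKM. Pdk1 made up 16.1% and 13.7% of the pyruvate dehydrogenase kinases in the controls and 9.51% and 7.76% in the other libraries, where Pdk2 went from 52.3% and 50.1% to 60.7% and 64.3%. Pdk4, the kinase induced by fatty acids, stood at 1.61 and 0.944 FPKM and at 3.97 and 4.87 FPKM (1.26, adjusted p = 0.0737).

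The other families kept their make-up more closely. Ldha made up 98.6% to 99.4% of the Ldha and Ldhb sum in all 4 libraries. Bnip3 made up 32.3% and 30.8% of the sum with its relative Bnip3l in the controls and 34.5% and 32.8% in the other libraries. Vegfa made up 76.9% and 75.3% of the sum with Vegfb and Vegfc in the controls and 79.9% and 82.0% in the others. Ndrg1 made up 59.9% and 45.4% of the Ndrg genes in the controls and 57.5% and 57.7% in the others, inside the control range.

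**Figure D3:**
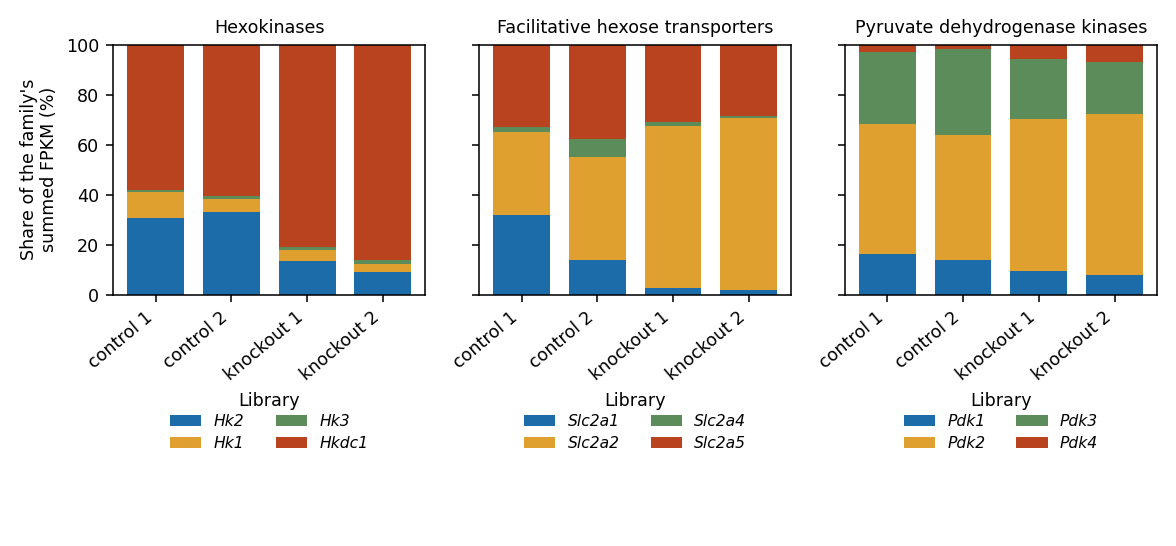
Share of each gene (%) in the summed FPKM of its family, by library, for hexokinases, facilitative hexose transporters and pyruvate dehydrogenase kinases. The blue segment at the base is the member: Hk2 goes from 30.7% and 33.0% to 13.4% and 9.17%, Slc2a1 from 31.7% and 14.0% to 2.75% and 1.99%, and Pdk1 from 16.1% and 13.7% to 9.51% and 7.76%.

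Of 19 other glycolytic enzyme genes tested, 0 passed the limma threshold over all genes in either direction, with 3 higher and 3 lower at an unadjusted p under 0.05 (7.49% and 19.1% of all genes). Their median log2 fold change was 0.00, or 0.16 relative to the median gene, with 10 positive and 9 negative (11 and 8 under either other scaling). Pklr, the liver-type pyruvate kinase, gave 0.89 (adjusted p = 0.0512), and Eno3, the muscle-type enolase, 0.76 (adjusted p = 0.0819).

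Aldoa, the ubiquitous aldolase, stood at 164 and 135 FPKM in the control pools against 97.4 and 92.2 FPKM in the pools labelled knockout (-0.65, adjusted p = 0.094), and Aldoc, the brain-type form, gave -0.93 (adjusted p = 0.13). Several other steps were near level by value: Gapdh gave 0.01, Gpi1 0.01, Eno1 0.09, Tpi1 0.11 and Pkm 0.13, none past the threshold. The phosphofructokinase genes were all negative and also did not pass. Pfkl stood at 22.5 and 11.2 FPKM in the control pools against 9.0 and 9.91 FPKM in the pools labelled knockout (-0.70). Pfkp gave -0.17 and Pfkm -0.16, near the median of all genes tested.

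Among 9 hexose and lactate carriers, 1 rose (Slc2a2) and none fell (0.595% and 0.131% of all genes), with a median of -0.12 (0.05 after median-ratio scaling). At an unadjusted limma p under 0.05 there were 4 higher and 2 lower (7.49% and 19.1% of all genes). Slc5a1, the apical sodium-glucose carrier, stood at 538 and 591 FPKM in the control pools against 1160 and 1332 FPKM in the other libraries (1.14, adjusted p = 0.054), and Slc2a5, the fructose carrier, gave 1.21 (adjusted p = 0.0585). Slc16a3, the lactate exporter that HIF induces, gave -0.77 (adjusted p = 0.181), with both pools labelled knockout below both controls. Its broadly expressed relative Slc16a1 gave -0.31 (adjusted p = 0.159). Of 12 genes for pyruvate dehydrogenase, its kinases and phosphatases and the pyruvate carrier, 0 passed (2 higher and 0 lower unadjusted, Pdk4 and Pdk2), around a median of 0.05.

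**Figure D4:**
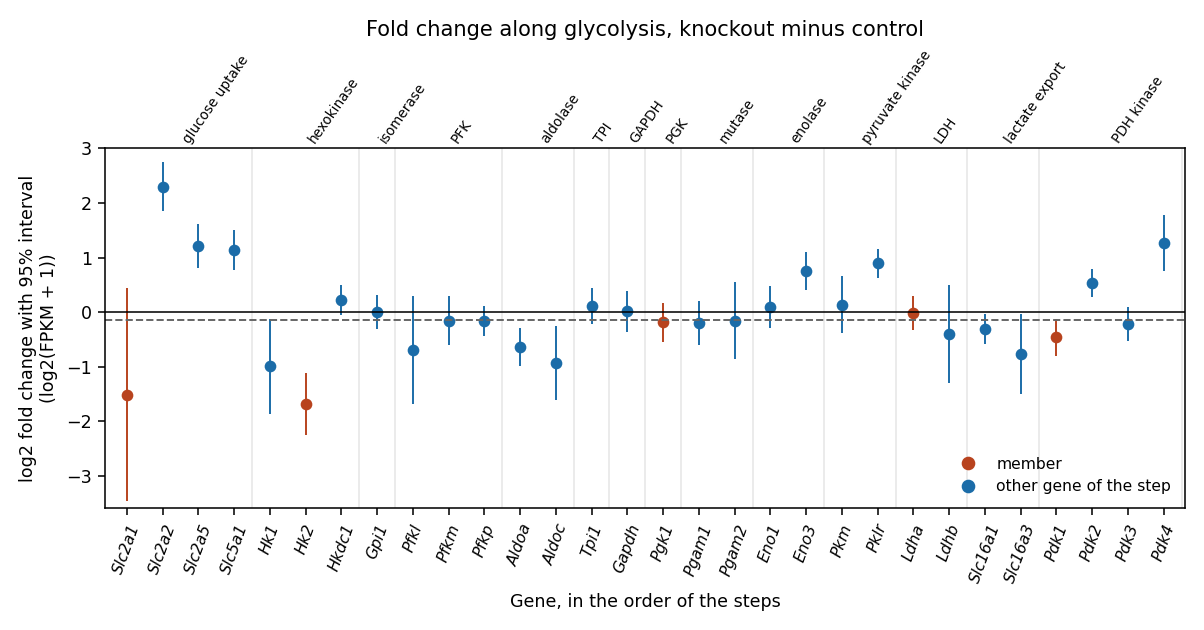
Log2 fold change with 95% limma interval for genes of glucose uptake, glycolysis, lactate handling and pyruvate dehydrogenase kinases, in the order of the steps, members in red. Slc2a2 lies at 2.29 and Slc2a1 at -1.51, Pklr at 0.89 and Hk2 at -1.68, while Gpi1, Tpi1, Gapdh, Eno1, Pkm and Ldha lie within 0.13 of 0; the dashed line is the median of all genes tested.

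Genes of the oxygen sensor itself did not pass the limma test. Of 17 tested, 0 passed (0 higher and 2 lower at an unadjusted p under 0.05, Cul2 and Vhl, a share below the 19.1% of all genes that were lower), with a median of -0.12, or 0.04 relative to the median gene. As scaled by the authors 12 were negative and 5 positive, against 6 and 11 with median-ratio scaling and 9 and 8 with quantiles. Of all 12948 genes tested 9279 were negative as scaled by the authors. Hif1a, the alpha subunit with the broadest expression, stood at 41.8 and 17.2 FPKM in the control pools against 20.2 and 21.6 FPKM in the pools labelled knockout (-0.35, adjusted p = 0.662), and Epas1, the HIF-2 alpha subunit, gave -0.15. The controls enclose the other group for Hif1a. Egln3, a hydroxylase that is itself a HIF target, stood at 46.3 and 27.8 FPKM and at 26.4 and 19.6 FPKM (-0.63, adjusted p = 0.261). HIF alpha is controlled mainly as protein, which these RNA values do not measure.

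A wider list of 22 HIF target genes outside the 10 gave 1 called gene, and it was higher, as were 0.595% of all genes. Angptl4, a lipoprotein lipase inhibitor that fatty acid receptors of the PPAR family also induce, rose from 9.26 and 9.06 FPKM to 32.7 and 35.0 FPKM (1.78, SE 0.09, limma adjusted p = 0.0373). That call passed in 8 of 12 alternatives (adjusted p 0.0160 to 0.256), with a log2 fold change of 1.73 or more in all 12. The list's median was -0.28, or -0.12 relative to the median gene, with 19 negative and 3 positive (13 and 9 with median-ratio scaling, 16 and 6 with quantiles). Negative values were also the majority among all genes tested (9279 of 12948 as scaled by the authors). Tfrc, the transferrin receptor, stood at 42.9 and 46.9 FPKM in the control pools against 31.2 and 30.5 FPKM in the other libraries (-0.53, adjusted p = 0.0841). Pfkfb3, which makes the activator of phosphofructokinase, gave 0.56 (adjusted p = 0.133), and Fam162a, a mitochondrial HIF target, -0.94 (adjusted p = 0.254). Car9, the carbonic anhydrase widely used as a hypoxia marker, stood at 29.7 and 19.5 FPKM and at 18.4 and 18.9 FPKM (-0.35, adjusted p = 0.331).

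The controls differed from each other for many HIF targets, which alone does not show which of them is unusual. Control replicate 1 was mostly the higher. Its value was at least 1.5 times that of control replicate 2 for 3 of the 10 members (Slc2a1, Bnip3 and Ndrg1) and for 10 of the 22 other HIF targets, against 9.99% of all genes tested. Fam162a, for example, stood at 87.9 and 39.9 FPKM in the controls, against 31.1 and 30.03 FPKM in the pools labelled knockout. Ddit4, an mTOR inhibitor induced by stress, stood at 42.7 and 11.6 FPKM in the control pools against 20.8 and 21.0 FPKM in the others. Without control replicate 1 the median of the wider list was -0.05, with 14 negative and 7 positive of 21 genes. Without control replicate 2 it was -0.45, with 19 negative and 3 positive of 22. The median of the 10 members was -0.21 without control replicate 1 and -0.51 without control replicate 2. The log2 fold changes of Hk2, Ankrd37 and Adm were -1.79, -1.20 and -1.13 without control replicate 1. They were -1.58, -1.38 and -1.23 without control replicate 2. Of 13 immediate early and handling-stress genes 0 passed (1 higher and 1 lower unadjusted, Fos and Ier3). In 5 of them control replicate 1 was at least 1.5 times control replicate 2. These include Hspa1b, a heat shock gene, at 29.4 and 3.82 FPKM in the controls and 17.1 and 17.8 FPKM in the others. What part this plays in the HIF targets was not tested.

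**Figure D5:**
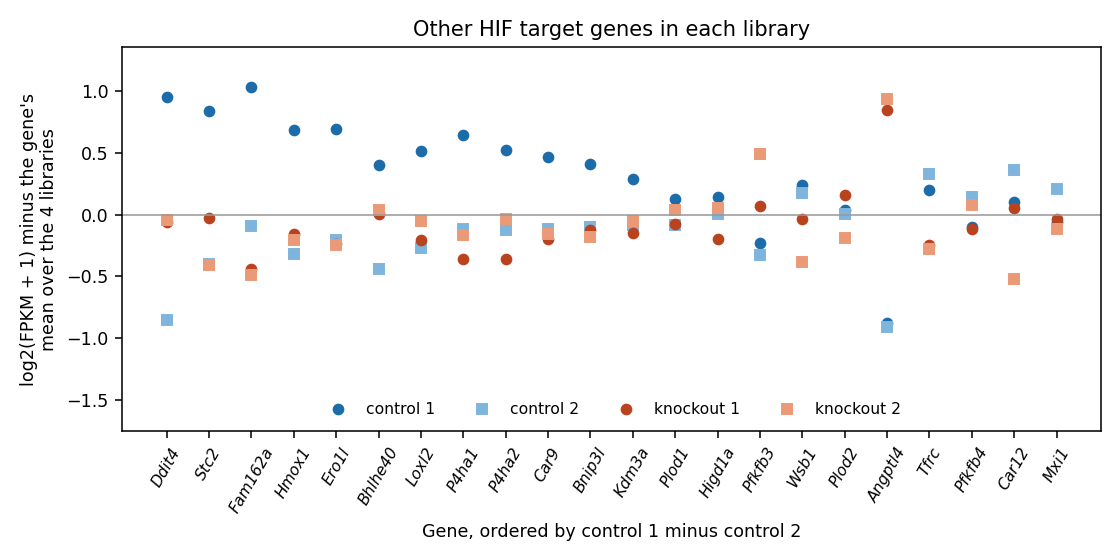
Values of 22 HIF target genes outside the 10 in each library, as log2(FPKM + 1) minus the gene's own mean over the 4 libraries, ordered by the gap between the controls. For the genes at the left, such as Ddit4 and Fam162a, control replicate 1 lies above the other 3 libraries, while Angptl4 is high in both pools labelled knockout.

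None of the receptors, partners and relatives of the members that follow passed the limma test, though their values differed in size. Of 11 VEGF and adrenomedullin ligand and receptor genes tested, 0 passed (1 higher and 1 lower unadjusted, Vegfc and Vegfb), around a median of 0.10. Kdr, the VEGF receptor of endothelial cells, stood at 5.31 and 4.46 FPKM in the control pools against 4.59 and 6.05 FPKM in the other libraries, and Calcrl, the adrenomedullin receptor, at 2.38 and 1.62 FPKM and at 2.41 and 2.48 FPKM. Of 10 mitophagy genes 0 passed (0 higher and 2 lower unadjusted, Gabarapl1 and Sqstm1, close to the 19.1% of all genes), with a median of -0.28, or -0.13 relative to the median gene. Ndrg2, the relative of Ndrg1 with the smallest p of its family, stood at 6.80 and 5.80 FPKM and at 4.26 and 4.06 FPKM (-0.50, adjusted p = 0.116). Of 3 iron genes that HIF-2 drives in the gut 0 passed (0 also unadjusted). Slc40a1, the iron exporter ferroportin, gave -1.64 (adjusted p = 0.188), from 31.8 and 17.6 FPKM to 10.8 and 4.31 FPKM, and Slc11a2 and Cybrd1 gave -0.22 and 0.11.

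Several lists of cell-type markers also differed between the groups. The marker lists were chosen with earlier results of these data known, so their counts are description only. Over all genes tested 0.595% were called higher and 0.131% lower. All 12 enterocyte markers had positive log2 fold changes (median 0.86, 2 called higher, Treh and Mme), and their summed FPKM went from 14120 and 16350 in the controls to 21980 and 25390 in the pools labelled knockout. All 10 proliferation markers were negative (median -0.51, 0 called), from sums of 242 and 221 FPKM to 165 and 167 FPKM. All 8 Paneth cell markers were negative (median -1.06, 2 called lower, Mmp7 and Itln1). The 6 pan-epithelial markers, Epcam and Cdh1 among them, and the crypt base stem cell markers were present in every library. All 6 pan-epithelial markers were negative (median -0.38, 0 called), as were all 7 stem cell markers (median -0.52, 0 called), all 4 tuft cell markers (1 called lower, Sh2d6) and 7 of 8 goblet cell markers (0 called). Across all 12948 genes tested 9279 were negative and 3669 positive, so a negative sign alone is common. Endothelial markers summed to 60.05 and 46.0 FPKM in the controls and 52.4 and 65.0 FPKM in the others, which overlap, and none of the 8 was called. None of the fibroblast, smooth muscle, immune, enteroendocrine or red blood cell markers was called. Between the controls, fibroblast markers were higher in replicate 1 (summed 174 FPKM, against 106), and smooth muscle (252 against 558) and red blood cell markers (26.9 against 68.1) were higher in replicate 2. The only RNA quality genes measured, Malat1 and Neat1, summed to 125 and 180 FPKM in the controls and to 160 and 138 FPKM in the others. The marker calls also depended on the setting: Mmp7 passed in 6 of 12 alternatives, Itln1 and Mme in 5, Treh in 4, and Sh2d6 in 1 of 9. No marker of these lists was at 0 in any library. Whether the lower Hk2, Slc2a1, Adm and Ankrd37 values follow these marker levels was not tested.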

How the data were processed

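Crypt RNA was sequenced in 4 libraries, 2 per group, with the NEBNext Ultra RNA kit on a HiSeq3000, per the labels' protocols. The submitters' processing notes list mm10 and hg38 as builds and HISAT2, BWA and SICER as tools, with no roles; for the counting tool, annotation and strand setting, nothing is stated in the sources used here. The authors deposited FPKM values per gene and library, their group means, a log2 fold change, and p-values and q-values from an unnamed test, per the file headers. The headers name no unit; FPKM follows from the values, since whole reads (within 0.002) were recovered for 13359 of 13359 genes by finding 1 length per gene and 1 total per library. Of 13527 entries 168 were exact repeats and were dropped. Unused per-sample columns numbered 0, and 4 ChIP-seq libraries of HCT116 cells were not analysed here.

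A gene was tested if 2 or more libraries reached 1 FPKM (12948 genes). The test was limma 3.58.1 (R 4.3.3) applied to log2(FPKM + 1), using trend and robust moderation and genotype as the only term (2 residual degrees of freedom). P-values were adjusted by Benjamini-Hochberg over all genes, at 0.05; intervals are at 95%. An exact permutation test of 2 against 2 libraries cannot go below p = 0.333 and was not used. The design assumed counts or normalized values, and the latter applied. Alternatives covered the pseudocount, filter, scaling, moderation, limma-voom on recovered reads, the replicate number as a block, and each library left out. Scripts were tested on simulated data. Members, gene lists and markers were chosen with earlier results of these data known. Named genes are the members, Zmynd8, up to 6 of smallest p per list, family members and overlapping genes. Car9, Ddit4, Hif1a, Epas1, Kdr, Hspa1b, Gapdh, Gpi1, Eno1, Tpi1, Pkm, Pfkl, Pfkp and Pfkm were added after their values were seen. Marker genes are named only as examples of their lists. Promoter windows come from RefSeq on GRCm38.p6, the same assembly as mm10; 9 of 10 members matched. Of the fixed lists, 1 gene is not reported here by name.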

Additional observations from a re-analysis of the deposited data

How the results depend on the processing

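The calls lay close to the threshold of 0.05. The limma test called 77 genes higher and 17 lower; the counts were 1 and 0 without a filter, 2 and 0 with a mean of at least 5 FPKM, 11 and 0 without trend or robust moderation, and 123 and 27 with limma-voom on recovered reads. Lower calls were 4 with median-ratio scaling and 5 with quantile normalization. With the replicate block they were 0 higher and 0 lower; same-numbered libraries shared little (correlation of deviations 0.0452 across genes) and nothing says that a number marks a litter or day. With 1 library left out, which leaves a lone library assumed to vary like the other group, higher calls ran from 0 to 230 and lower calls from 0 to 386. Members called lower, 2 as reported, were 0 without a filter, with a mean of at least 5 FPKM (Adm and Ankrd37 then fell out), without trend or robust moderation and with the replicate block, and 1 with median-ratio scaling and with quantile normalization; they ran from 0 to 3 with a library left out. The 5 members below both controls became 3 with the mean of at least 5 FPKM and 6 with quantile normalization. Of 118 alternative values of single members, 97 kept direction and side of the threshold, 15 lost a call, 2 gained one (Hk2 and Slc2a1) and 4 changed sign. Those were Ldha with median-ratio scaling (0.16), and Ldha, Bnip3 and Ndrg1 with a library left out, whose ranges were -0.070 to 0.032, -0.46 to 0.13 and -0.20 to 0.56. The cause was not tested. Adm rests on 67 to 235 reads a library, so its value is the least precise in counting terms.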
